A study of Mus musculus with 6 samples.

Results

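The Slc25 genes encode the mitochondrial carriers, and 42 of the 44 Slc25 genes named by a single-gene probe set are described here, of 18193 genes measured in mouse liver. All genes whose symbol begins with Slc25a were taken, apart from 2 that the selection rule leaves out, and each gene was read on 1 single-gene probe set, the one with the highest mean level over all arrays. The choice used names and not differences between groups. Gene expression was measured on 6 Affymetrix mouse arrays of liver RNA from 8-week-old male C57BL/6J mice. The arrays form 3 groups of 2, which the labels call biological replicates: fed wild-type mice on normal chow, wild-type mice deprived of food for 24 h, and Cnot3+/- mice (Cnot3het in the labels) deprived of food for 24 h. The protein made from Cnot3 belongs to CCR4-NOT, the complex that trims poly(A) tails and so limits how long mRNAs last. No fed Cnot3+/- group was given, so the genotype is compared in the fasted state only. Which part of Cnot3 is missing is not given in the sources used here, and its brighter probe set differed between the fasted genotypes by -0.01 on the log2 scale, so the genotype is given as labelled.

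Slc25 carriers are a large family of membrane proteins, most of them in the inner mitochondrial membrane, that exchange nucleotides, phosphate, carboxylic acids, amino acids and cofactors between the cytosol and the matrix. Nuclear genes encode them, and the finished proteins enter through the outer membrane pore and the inner membrane carrier translocase. In liver they serve gluconeogenesis, the urea cycle, fatty acid synthesis and the export of reducing equivalents. During a fast the liver turns from storing fat towards oxidising it and making glucose and ketone bodies.

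Values are RMA levels, on a log2 scale, where a difference of 1 is a 2-fold change. The array medians lay between 5.59 and 5.64, and the median gene read 6.74. In all 3 groups 34 of the 42 carriers read above the array medians, and 32 were brighter than the median gene. Slc25a35, Slc25a41, Slc25a53, Slc25a2, Slc25a18, Slc25a54 and Slc25a31 lay at or under the array medians in every group and were not shown to be above background. Slc25a24 lay there in the fed and the fasted wild-type group. The 7 hepatocyte markers summed to between 17.54 and 17.63 (log2 of the summed signals) on the 6 arrays, and none of them passed the test in any comparison. The labelled tissue thus carried its defining markers, while both brown fat markers lay at or under the array medians. In bulk tissue, fewer cells of a type and less RNA per cell cannot be told apart.

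The first Cnot3+/- array stood apart from the other 5 in the signal of control transcripts probed at both ends. Its 3′ minus 5′ difference was 1.06 for beta actin, against 0.43 to 0.62 on the others. For Gapdh it was 0.31, against -0.14 to 0.06, and for pyruvate carboxylase 4.12, against 1.87 to 3.29. Called differences, calls of a list and the values of genes singled out on the Cnot3+/- arrays are therefore given with and without it, while levels, overlaps and medians are given with it. The carriers' replicate arrays lay a median of 0.17 apart when fed, 0.15 when fasted and wild-type, and 0.27 when Cnot3+/-. Over all genes those medians were 0.14, 0.14 and 0.17.

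After the fast, 3 carriers rose in wild-type liver: Slc25a22, a mitochondrial glutamate carrier, Slc25a34, a carrier whose substrate is not settled, and Slc25a47, a carrier found mainly in liver. Slc25a23, an exchanger of ATP-magnesium for phosphate, fell. These 4 of 42 (9.52%) passed limma's test with Benjamini-Hochberg adjustment over all genes at 0.05, beside 5.02% of all genes (1.87% rose and 3.15% fell). With 1 array left out, between 1 and 7 carriers were called, 1 without the first fasted wild-type array and 2 without the second or without the second fed array. Calls over all genes fell too in those omissions, so fewer calls there are not particular to the carriers. Without the first fed array more carriers were called, while calls over all genes fell. Among genes brighter than the median gene the shares were 12.5% of 32 carriers and 8.50% of all such genes. Positive differences were measured for 26 carriers and negative ones for 16. Their median was 0.08, beside 0.02 over all genes, and the median size of a difference regardless of sign was 0.26, beside 0.15. Fed and fasted arrays did not overlap for 20 carriers that read higher after the fast and 9 that read lower (69.0% of the carriers, beside 50.8% of all genes, 27.1% higher and 23.7% lower).

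Some markers of other liver cells moved with the fast. Of 7 stellate cell markers 1, Dcn, rose by 0.61 (SE 0.13, limma adjusted p = 0.0497), and 3 were called lower. Col3a1, a fibrillar collagen, fell by 2.32 (SE 0.34, adjusted p = 0.0125), and Lrat, which esterifies retinol, by 1.20 (SE 0.13, adjusted p = 0.00497). Col1a1 was called at -0.65 (adjusted p = 0.0286) but read under the array medians in every group, so no fall is read from it. Over the 7 markers 3 differences were positive and 4 negative, with a median of -0.10. The summed level of the 7 (log2 of the summed signals) was 12.41 to 12.46 in fed and 12.54 to 12.63 in fasted wild-type liver. Of 7 endothelial markers 1, Lyve1, rose by 1.58 (SE 0.17, limma adjusted p = 0.00456), and the sum was 11.53 to 11.54 and 11.68 to 11.73. None of 9 macrophage markers was called, and their median difference was 0.45. Their part in the carriers' values was not tested.

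**Figure D1:**
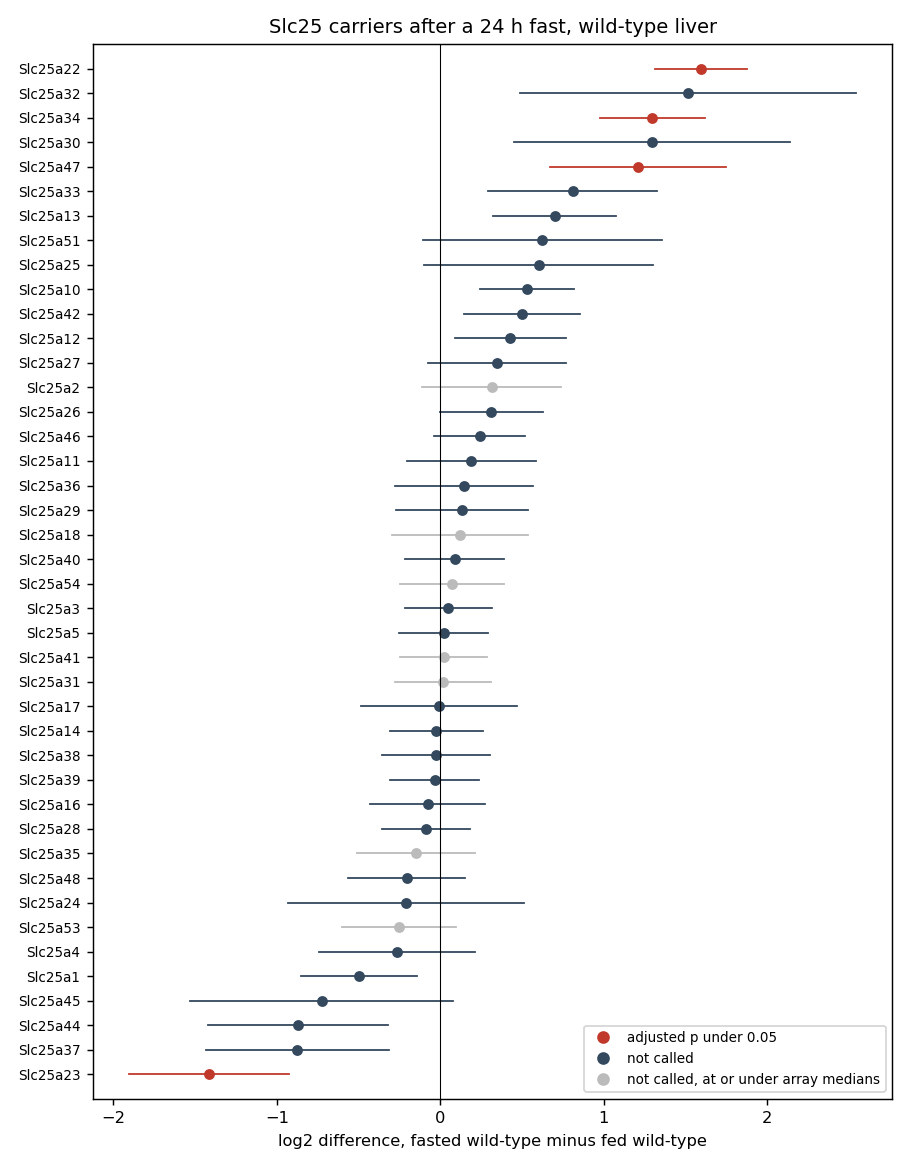
The difference of each of the 42 Slc25 carriers (fasted wild-type minus fed wild-type, log2, x axis), with its 95% confidence interval from limma; red marks an adjusted p under 0.05 and light grey the 7 carriers at or under the array medians. The 3 red carriers to the right lie between 1.21 and 1.60 and the 1 to the left at -1.41, while Slc25a32 at 1.52 and Slc25a30 at 1.30 have wide intervals and were not called.

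Slc25a22 had the smallest fasting p of the carriers. It read 10.74 and 10.75 in fed liver, 12.28 and 12.40 in fasted wild-type liver, and 12.67 and 12.80 in fasted Cnot3+/- liver. The 3 groups did not overlap. The rise after the fast was 1.60 (SE 0.12, limma adjusted p = 0.00197), a 3.02-fold difference, and against fed liver the Cnot3+/- arrays were higher by 1.99 (adjusted p = 0.000722). Without the first Cnot3+/- array the latter difference was 2.05 (adjusted p = 0.00303).

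Slc25a34 read 6.95 and 7.23 in fed liver, 8.44 and 8.33 in fasted wild-type liver and 8.22 and 8.25 in fasted Cnot3+/- liver. Fed and fasted arrays were apart by far more than the replicates of any group. The rise was 1.30 (SE 0.14, adjusted p = 0.00448) in wild-type and 1.14 (adjusted p = 0.00523) in Cnot3+/- mice against fed liver, and 1.16 (adjusted p = 0.0212) without the first Cnot3+/- array. Its fasting call was lost when the first fasted wild-type array was left out (adjusted p = 0.0531).

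Slc25a47 read 13.35 and 12.72 in fed, 14.11 and 14.38 in fasted wild-type and 14.03 and 14.38 in Cnot3+/- liver. Every fasted array lay above both fed arrays. It rose by 1.21 (SE 0.23, adjusted p = 0.0316) in wild-type liver and stood 1.17 (adjusted p = 0.0266) above fed liver in Cnot3+/- mice, or 1.34 (adjusted p = 0.0471) without the first Cnot3+/- array. Its only probe set is of a kind that can match several transcripts. The fasting call was lost without the second fed array (adjusted p = 0.109), the first fasted wild-type array (0.129) or the second (0.179).

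Slc25a23 went the other way, with 11.16 and 11.47 in fed liver, 9.98 and 9.82 in fasted wild-type liver and 10.26 and 9.68 in fasted Cnot3+/- liver. Every fasted array was below both fed arrays. It fell by 1.41 (SE 0.21, adjusted p = 0.0134), a 2.66-fold difference, and by 1.35 (adjusted p = 0.0121) in Cnot3+/- mice against the same fed arrays. Without the first Cnot3+/- array the latter was -1.63 (adjusted p = 0.0104). The fasting call was lost without the second fed array (adjusted p = 0.0791), the first fasted wild-type array (0.0911) or the second (0.0966).

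Promoters are printed for 3 of these 4 carriers: Slc25a34 and Slc25a47, which held a match to AGGTCA, and Slc25a23, which held none. Slc25a22, which rose most and held no match, is not printed. The choice thus followed the matches, and no contrast between carriers that rose and fell is read from it. The 250 bases before the annotated start are given 5′ to 3′ on the gene's strand, from RefSeq on GRCm38.p6, with capitals for a match to AGGTCA on either strand, a nuclear receptor core motif that was added to the search after the data were seen. Both matches read TGACCT here because they lie on the opposite strand.
Slc25a34, chr4:141623835-141624084, minus strand: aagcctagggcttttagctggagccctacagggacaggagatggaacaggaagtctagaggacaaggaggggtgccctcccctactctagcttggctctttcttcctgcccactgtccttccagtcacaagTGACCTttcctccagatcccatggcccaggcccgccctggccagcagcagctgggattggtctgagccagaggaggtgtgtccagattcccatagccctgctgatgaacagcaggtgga
Slc25a47, chr12:108850879-108851128, plus strand: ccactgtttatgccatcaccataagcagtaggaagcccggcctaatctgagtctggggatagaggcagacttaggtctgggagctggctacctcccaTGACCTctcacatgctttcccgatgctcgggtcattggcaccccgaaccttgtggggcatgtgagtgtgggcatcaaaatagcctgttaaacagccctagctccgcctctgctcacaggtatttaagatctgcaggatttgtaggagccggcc
Slc25a23, chr17:57059864-57060113, minus strand: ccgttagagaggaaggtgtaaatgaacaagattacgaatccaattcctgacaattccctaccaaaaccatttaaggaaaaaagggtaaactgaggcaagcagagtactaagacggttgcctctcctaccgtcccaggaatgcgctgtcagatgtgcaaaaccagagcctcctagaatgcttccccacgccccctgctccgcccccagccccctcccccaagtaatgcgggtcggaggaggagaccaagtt
The match lay 119 bases before the start in Slc25a34 and 153 bases before it in Slc25a47. The window of Slc25a23 is the first of 2 that overlap, and neither these nor the 3 windows of Slc25a22 held a match. Of the 42 carriers, 32 had a window, and AGGTCA matched in 4 of them, beside 15.8% of all genes with a window (14.0% of windows). CACGTG, the E-box, matched in 6 of the 32 (Slc25a13, Slc25a1, Slc25a33, Slc25a14, Slc25a36 and Slc25a31), beside 6.86% of genes. TCACNCCAC, a sterol regulatory element form, matched in 1 (Slc25a18), beside 1.22% of genes, and DR1, AGGTCA repeated with 1 base between, in none, beside 0.0407% of genes. Both strands were searched. A match describes letters in this window and shows no binding.

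The aspartate and glutamate carriers include the parts of the malate-aspartate shuttle that cross the inner membrane. All 4 had positive fasting differences, with a median of 0.56, and 1 of them, Slc25a22, rose. The 4 include Slc25a18 at 0.12, which lay under the array medians, so no direction is read from it. Over all genes 9954 of 18193 had positive differences. Slc25a13 (citrin), the aspartate-glutamate carrier of liver, read 11.98 and 11.78 in fed, 12.57 and 12.59 in fasted wild-type and 12.07 and 12.47 in Cnot3+/- liver. Its fasting difference of 0.70 (SE 0.16, limma adjusted p = 0.0555) missed the threshold. Slc25a13 was called with values centred on the brighter genes, with a changed variance prior, and with only the fed and fasted wild-type groups in the fit. Leaving out either Cnot3+/- array repeats the last of these fits. The Cnot3+/- arrays lay between the fed and the fasted wild-type arrays. Slc25a12 (aralar), the other aspartate-glutamate carrier, read 8.29 and 7.98, then 8.63 and 8.50, then 8.75 and 8.85 in the same order of groups. Its difference was 0.43 (adjusted p = 0.159) in wild-type and 0.66 (adjusted p = 0.0364) in Cnot3+/- mice against fed liver, and the latter was not called without the first Cnot3+/- array (adjusted p = 0.0828) or in 10 of 14 alternative settings in all. Its other probe sets, both near the array medians, differed after the fast by -0.20 and -0.06. Slc25a18, a second glutamate carrier, read 3.78 to 4.28 over the 6 arrays, under the array medians.

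**Figure D2:**
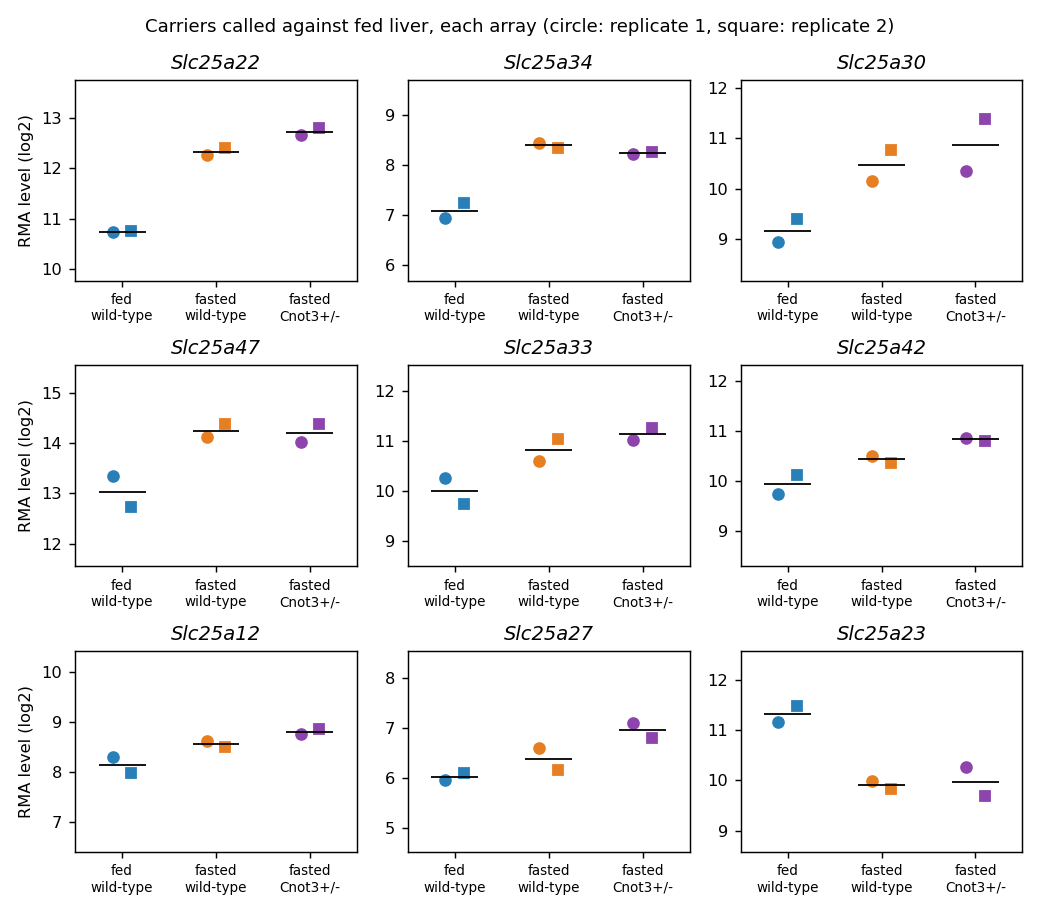
RMA level (log2, y axis) on each array of the 9 carriers called in at least 1 comparison with fed liver, by group; circles are replicate 1, squares replicate 2 and bars the group means, and every y axis spans the same number of log2 units. Slc25a22 reads 10.74 and 10.75 on the fed arrays and 12.28 to 12.80 on the fasted arrays, and Slc25a23 is lower on every fasted array than on both fed arrays.

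Carboxylic acid carriers did not pass the test. Slc25a10, the dicarboxylate carrier that exchanges malate and succinate for phosphate, read 11.63 and 11.66 in fed, 12.27 and 12.08 in fasted wild-type and 12.04 and 12.10 in Cnot3+/- liver. The fed arrays lay below all fasted arrays, and the fasting difference was 0.53 (SE 0.12, limma adjusted p = 0.0558). Its second probe set differed by 0.64. Slc25a1, the citrate carrier that delivers citrate for fatty acid synthesis, read 11.80 and 11.78, then 11.13 and 11.46, then 11.16 and 11.38. It was lower on every fasted array, with a difference of -0.50 (SE 0.15, adjusted p = 0.128) in wild-type and -0.52 (adjusted p = 0.0916) in Cnot3+/- mice, or -0.42 (adjusted p = 0.260) without the first Cnot3+/- array. Slc25a11, the oxoglutarate carrier of the malate-aspartate shuttle, read 10.89 and 10.80, then 10.99 and 11.09, then 10.73 and 11.20, and differed by 0.19 (adjusted p = 0.626).

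None of the carriers that serve ATP synthesis was called in the main fit. Slc25a5, an adenine nucleotide translocase, read 13.95 and 14.00 in fed, 13.97 and 14.02 in fasted wild-type and 13.84 and 13.96 in Cnot3+/- liver. Its fasting difference of 0.02 had a 95% confidence interval from -0.25 to 0.29, and its 8 probe sets ran from -0.19 to 0.02. Slc25a4, the translocase best known from muscle and heart, read 6.82 to 7.63 over the 6 arrays and differed by -0.27 (adjusted p = 0.564). Because these translocases are close in sequence, a probe set can read both. Slc25a31, the translocase of testis, read 3.43 to 3.70, under the array medians. Slc25a3, the phosphate carrier, read 13.26 and 13.27, then 13.31 and 13.33, then 13.27 and 13.39, and its difference of 0.05 had an interval from -0.22 to 0.32.

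Among the exchangers of ATP-magnesium for phosphate, which load the matrix with adenine nucleotides, Slc25a23 fell while Slc25a25 gave a positive difference. Slc25a25 read 10.25 and 9.92 in fed, 10.66 and 10.72 in fasted wild-type and 11.56 and 10.56 in Cnot3+/- liver. Its difference was 0.60 (adjusted p = 0.338) after the fast and 0.98 (adjusted p = 0.106) for Cnot3+/- against fed liver, with the first Cnot3+/- array well above the second. Without that array the latter was 0.48 (adjusted p = 0.202). Slc25a24, near the array medians with group means of 5.45, 5.24 and 5.85, differed by -0.21 after the fast (adjusted p = 0.791). Slc25a41, an exchanger without the calcium-binding part of the others, read 5.10 to 5.37, under the array medians.

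Of 4 cofactor carriers, 1 was called, on the Cnot3+/- arrays against fed liver. Slc25a42, which imports coenzyme A, read 9.75 and 10.12 in fed, 10.50 and 10.36 in fasted wild-type and 10.86 and 10.80 in Cnot3+/- liver. The groups followed each other without overlap. The difference was 0.50 (SE 0.15, adjusted p = 0.126) in wild-type and 0.90 (adjusted p = 0.0166) in Cnot3+/- mice, or 0.86 (adjusted p = 0.0604) without the first Cnot3+/- array. Slc25a51, the NAD carrier, read 11.86 and 10.99, then 12.18 and 11.93, then 12.40 and 11.75. Its fed arrays were far apart, and its difference of 0.63 did not pass (adjusted p = 0.342). Slc25a16, linked to coenzyme A, read 9.80 to 10.39 and differed after the fast by -0.08. Slc25a17, the peroxisomal carrier of coenzyme A and related nucleotides, differed by -0.01.

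Folate, methyl donor and pyrimidine carriers had positive fasting differences without a call. Slc25a32, which carries folate and flavin cofactors, read 8.23 and 6.89 in fed, 8.75 and 9.40 in fasted wild-type and 8.88 and 9.53 in Cnot3+/- liver. Its fed arrays were 1.33 apart, the widest replicate gap among the carriers. The difference was 1.52 (SE 0.44, adjusted p = 0.108), and its 3 probe sets ranged from 1.01 to 1.52. It was 2.18 without the first fed array and 0.85 without the second. Slc25a26, the S-adenosylmethionine carrier, read 7.20 to 7.85 and differed by 0.31 (adjusted p = 0.268). Slc25a33, a pyrimidine nucleotide carrier, read 10.26 and 9.75, then 10.59 and 11.04, then 11.01 and 11.27. Its difference was 0.81 (SE 0.22, adjusted p = 0.0902) in wild-type and 1.13 (adjusted p = 0.0260) in Cnot3+/- mice, or 1.26 (adjusted p = 0.0540) without the first Cnot3+/- array. Slc25a36, the related pyrimidine carrier, read 6.28 to 6.93 and differed by 0.15 after the fast.

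Of the iron carriers, Slc25a37 (mitoferrin 1), which feeds iron to haem synthesis and is best known from red cell precursors, read 9.76 and 9.81 in fed, 9.09 and 8.72 in fasted wild-type and 9.25 and 8.54 in Cnot3+/- liver. Every fasted array was below the fed arrays. After the fast Slc25a37 missed the threshold in the main fit. It was called with the replicate number as a block, and with only the fed and fasted wild-type groups in the fit. For this comparison, leaving out either Cnot3+/- array repeats the latter fit and adds no separate call. The difference was -0.88 (SE 0.24, limma adjusted p = 0.0912) in wild-type and -0.88 (adjusted p = 0.0736) in Cnot3+/- mice, and the latter was -1.24 (adjusted p = 0.0215) without the first Cnot3+/- array. Alas2, the erythroid enzyme that starts haem synthesis, differed by -0.82 after the fast (adjusted p = 0.0637). Klf1, the other erythroid marker above the array medians, differed by -0.14 (adjusted p = 0.777). Over the 5 measured erythroid markers 2 differences were positive and 3 negative, with a median of -0.03. Alas2 was the brightest of the 5 and weighs most in their sum. The 5 measured erythroid markers, of which 3 were at or under the array medians, summed to 10.49 to 10.67 in fed, 9.78 to 10.12 in fasted wild-type and 10.13 to 10.38 in Cnot3+/- liver (log2 of the summed signals). Their part in the reading of Slc25a37 was not tested. Slc25a28 (mitoferrin 2), the iron carrier of other tissues, differed by -0.09 after the fast.

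Among amino acid and glutathione carriers, Slc25a44, which takes up branched-chain amino acids, read 9.77 and 10.50 in fed, 9.39 and 9.14 in fasted wild-type and 9.64 and 9.48 in Cnot3+/- liver. Every fasted array was below both fed arrays. The fasting difference was -0.87 (SE 0.23, adjusted p = 0.0893). It was -1.23 without the first fed array and -0.50 without the second. Its second probe set gave -0.70 and the third 0.33, so its probe sets did not share a direction. Slc25a39, which takes glutathione into the matrix, read 14.42 and 14.48, then 14.39 and 14.45, then 14.39 and 14.49. Its 5 probe sets ran from -0.18 to 0.04, and its own difference was -0.03 (interval -0.30 to 0.24). Slc25a40, its close relative, read 6.80 to 7.10 and differed by 0.09. Slc25a38, the glycine carrier needed for haem synthesis, read 8.68 to 9.03 and differed by -0.03.

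Slc25a29, a carrier of basic amino acids, read 7.56 to 8.15 and differed by 0.13 after the fast, with its 5 probe sets between 0.13 and 0.32. Slc25a45, a carrier of the carnitine carrier branch, read 9.45 and 10.41 in fed and 9.48 and 8.93 in fasted wild-type liver, and its difference of -0.73 did not pass (adjusted p = 0.315). Slc25a48, of the same branch, read 7.07 to 7.48 and differed by -0.21. Slc25a2, an ornithine carrier, read 3.72 to 4.25, under the array medians. Slc25a47, described above as called, belongs to this group of 5, in which 1 rose and none fell.

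Of 3 carriers related to the uncoupling proteins, none was called after the fast in wild-type liver, and 2 were called on the Cnot3+/- arrays against fed liver. Slc25a30, a carrier first described in kidney, read 8.94 and 9.39 in fed, 10.15 and 10.78 in fasted wild-type and 10.34 and 11.40 in Cnot3+/- liver. Fed and fasted arrays did not overlap. After the fast Slc25a30 missed the threshold in the main fit. It was called with the replicate number as a block, and with only the fed and fasted wild-type groups in the fit. For this comparison, leaving out either Cnot3+/- array is the latter fit again and adds no separate call. The difference was 1.30 (SE 0.36, adjusted p = 0.0964), a 2.46-fold difference that 4 probe sets placed between 1.12 and 1.53. In Cnot3+/- mice it was 1.70 (adjusted p = 0.0331), and 2.23 (adjusted p = 0.0147) without the first Cnot3+/- array. Slc25a27 (UCP4), best known from brain, read 5.97 and 6.10, then 6.60 and 6.17, then 7.10 and 6.80. It was close to the array medians, and its difference was 0.35 (adjusted p = 0.361) in wild-type and 0.92 (adjusted p = 0.0265) in Cnot3+/- mice, or 0.77 (adjusted p = 0.0972) without the first Cnot3+/- array. A second probe set of it above the array medians gave -0.08 for the latter. Slc25a14 (UCP5) read 7.04 to 7.23 and differed by -0.02 after the fast. Ucp1 and Ucp3, the uncoupling proteins of the carrier family that were measured, differed by 0.24 and 0.04 with no call, and Ucp1 lay under the array medians.

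The remaining 5 carriers have another place or no settled substrate, and 1 of them, Slc25a34, rose. Slc25a46, an outer membrane protein with a carrier fold that acts in mitochondrial fission, read 10.51 to 10.96 and differed by 0.24 (adjusted p = 0.342). Slc25a35, Slc25a53 and Slc25a54 read 5.01 to 5.52, 4.78 to 5.50 and 3.82 to 4.28, all under the array medians.

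**Figure D3:**
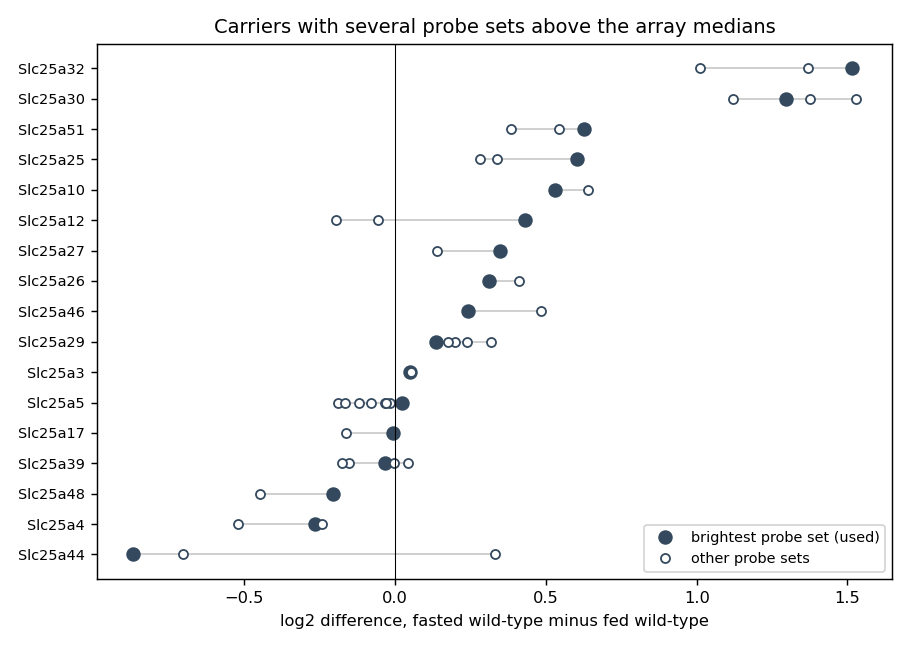
The fasting difference (fasted wild-type minus fed wild-type, log2, x axis) on each probe set above the array medians for the 17 carriers that have several; filled points are the brightest probe set, which was used, and open points the others. In 13 carriers all probe sets have 1 sign, as in Slc25a32 (1.01 to 1.52) and Slc25a30 (1.12 to 1.53), and in the other 4, Slc25a12, Slc25a39, Slc25a44 and Slc25a5, they have both.

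In fasted Cnot3+/- liver, compared with fed wild-type liver, 8 carriers were higher and 1 lower, 9 of 42 in all (21.4%, beside 7.56% of all genes, 3.88% higher and 3.68% lower). These were Slc25a22, Slc25a34, Slc25a47, Slc25a30, Slc25a33, Slc25a42, Slc25a12 and Slc25a27, and Slc25a23 in the other direction. Among genes brighter than the median gene the calls were 8 of 32 carriers and 12.9% of all such genes. This comparison changes feeding and genotype together and uses the fed arrays of the fasting comparison, so the counts of both are not independent. Without the first Cnot3+/- array 6 carriers were called, with Slc25a37 added and Slc25a33, Slc25a42, Slc25a12 and Slc25a27 lost. Without the second fed array 3 were called, and without the second Cnot3+/- array 5. Calls over all genes also fell whichever array was left out, so fewer calls then are not particular to the carriers. The median difference of the carriers was 0.21, beside 0.00 over all genes, and 0.060 without the second Cnot3+/- array. Among the markers of other cells, 5 of 9 macrophage genes were called higher here, with a median of 0.80, and 3 of 9 without the first Cnot3+/- array, with a median of 0.62. Their summed level was 12.26 to 12.60 on the fed, 12.77 to 12.88 on the fasted wild-type and 13.04 to 13.53 on the Cnot3+/- arrays. Their part in the carriers' values was not tested.

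Several of these calls rested on single arrays. Slc25a22 and Slc25a34 were called whichever array was left out. Slc25a23 was not called without the second fed array (adjusted p = 0.0662). Slc25a47 was not called without the second fed array (adjusted p = 0.0983), either fasted wild-type array (0.0522) or the second Cnot3+/- array (0.114). Slc25a30 was called only without the first Cnot3+/- array among the 6 omissions, with an adjusted p of 0.0516 to 0.150 in the other 5. Slc25a33 was lost without the second fed array (adjusted p = 0.113) or either Cnot3+/- array (0.0540 and 0.110). Slc25a42 was lost without the first fed array (adjusted p = 0.0643) or either Cnot3+/- array (0.0604 and 0.0574). Slc25a27 was lost without either fed array (adjusted p = 0.115 and 0.0909) or the first Cnot3+/- array. Slc25a12 was lost in every omission but that of the first fed array (adjusted p = 0.0722 to 0.161).

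Between the fasted genotypes no carrier passed limma's test, nor did any of the 18193 genes (0%), while 6 carriers and 1011 genes (5.56%) had an unadjusted p under 0.05. The smallest adjusted p of a carrier was 0.863. Differences were positive for 25 carriers and negative for 17, with a median of 0.10, beside 0.00 over all genes. The fasted groups did not overlap for 10 carriers that read higher and 7 that read lower in Cnot3+/- liver (40.5%, beside 36.0% of all genes, 17.5% higher and 18.5% lower). Among genes brighter than the median gene the median was 0.02 for 32 carriers, beside 0.04 for all such genes. There 34.4% of the carriers did not overlap, beside 35.5%, so no upward shift particular to the carriers is read. For 16 carriers the Cnot3+/- arrays lay on opposite sides of the fasted wild-type mean. With all arrays no carrier differed by 2-fold or more in either direction, beside 0.22% of all genes. The largest difference was 0.60, for Slc25a24, which lay near the array medians. Without the first Cnot3+/- array that of Slc25a24 was 1.05, over 2-fold, and that of Slc25a30 was 0.93, while the lowest was -0.49, for Slc25a16. All 9 macrophage markers had positive differences, with a median of 0.45 and no call, or 0.26 without the first Cnot3+/- array, and their part in the carriers' values was not tested.

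The 6 carriers with the smallest p are given as values that did not pass, with an adjusted p of 0.863 for each. Slc25a28, the iron carrier mitoferrin 2, read 9.34 and 9.45 in wild-type and 9.90 and 9.82 in Cnot3+/- fasted liver, beside 9.47 and 9.49 in fed liver. The difference was 0.47 (SE 0.12, interval 0.20 to 0.74, limma adjusted p = 0.863), and 0.43 without the first Cnot3+/- array. The 3 groups did not overlap. Slc25a22, with the arrays given above, was higher in Cnot3+/- liver by 0.40 (SE 0.12, interval 0.12 to 0.68, adjusted p = 0.863), and by 0.46 without that array. Slc25a42, the coenzyme A carrier, was higher by 0.40 (SE 0.15), and by 0.37 without it. For Slc25a27 the difference was 0.57 (SE 0.18), and 0.42 without it, while its second probe set above the array medians gave -0.21. Slc25a17, the peroxisomal carrier, read 10.05 and 9.86 in fed, 9.85 and 10.05 in fasted wild-type and 9.12 and 9.71 in Cnot3+/- liver. Both Cnot3+/- arrays were below the others. Its difference was -0.53 (SE 0.20), and -0.24 without the first Cnot3+/- array. Slc25a53 was at or under the array medians in every group, and no difference is read from it.

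**Figure D4:**
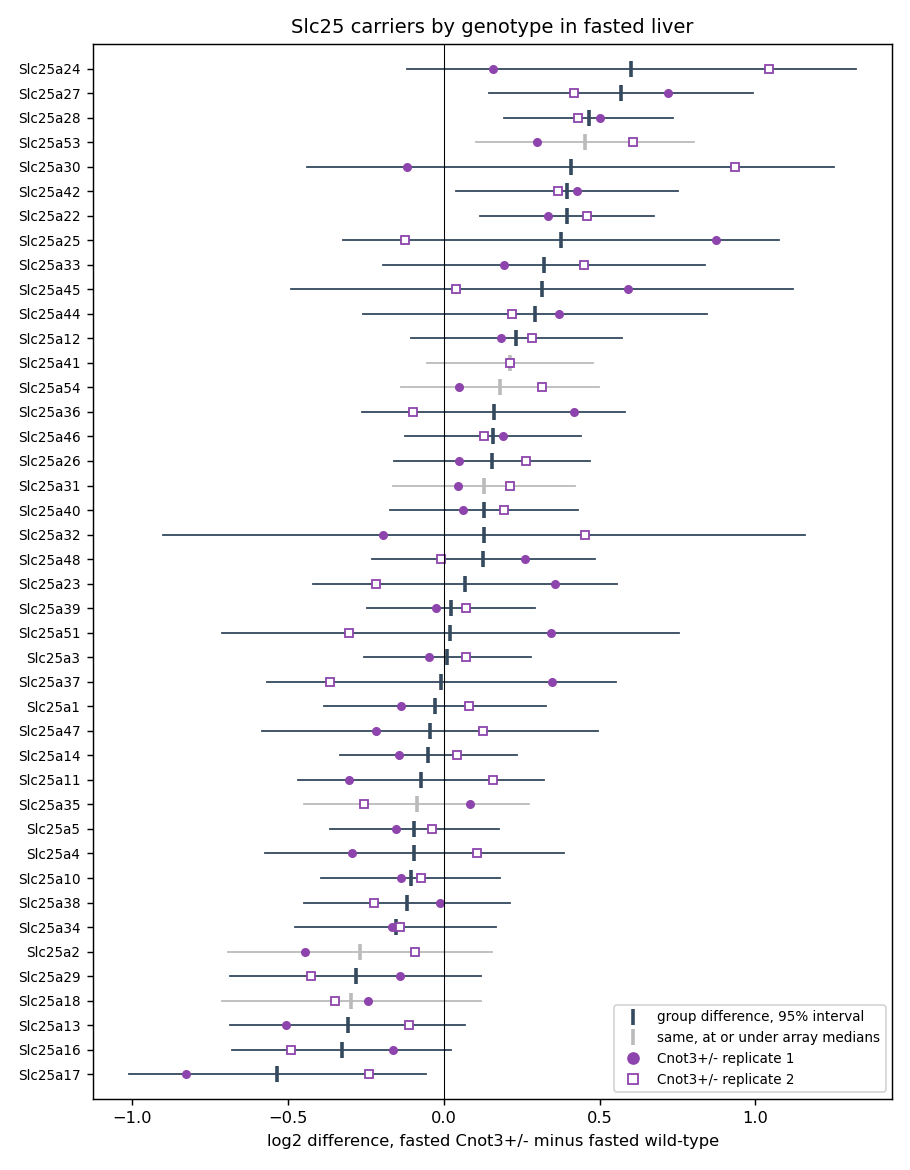
The difference of each of the 42 carriers between the fasted genotypes (Cnot3+/- minus wild-type, log2, x axis), with its 95% confidence interval; each Cnot3+/- array minus the fasted wild-type mean is shown as a circle (replicate 1) or square (replicate 2), and grey ticks mark the 7 carriers at or under the array medians. None was called; for Slc25a28 and Slc25a22 both arrays lie close together, at 0.50 and 0.43 and at 0.33 and 0.46, while for Slc25a25 they lie at 0.87 and -0.12.

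Genes that work with the carriers were read from lists of 104 genes, of which 94 were measured. After the fast 3 of them rose and 7 fell (10.6%, beside 5.02% of all genes), with a median of -0.06, and with 1 array left out between 2 (without the first fasted wild-type array) and 10 were called. Against fed liver the Cnot3+/- arrays gave 5 higher and 8 lower (13.8%, beside 7.56%). With 1 array left out between 4 (without the second fed array) and 10 (without the first Cnot3+/- array) were called there, among them 6 without the first fed array and 6 without the second Cnot3+/- array. Between the fasted genotypes none of the 94 was called. Of 17 genes of the import machinery, 1 fell: Timm22, the translocase that inserts carriers into the inner membrane, by 0.63 (SE 0.12, limma adjusted p = 0.0349). It read 9.50 and 9.70 in fed, 8.95 and 9.01 in fasted wild-type and 9.02 and 9.04 in Cnot3+/- liver. The list's median was 0.09. Of 16 other mitochondrial transporters, 2 fell: Abcb10, an inner membrane transporter tied to haem synthesis, by 1.21 (adjusted p = 0.00548), and Sfxn5, a sideroflexin, by 0.99 (adjusted p = 0.0273).

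Of 6 shuttle enzymes, Got1 rose. Got1, the cytosolic aspartate aminotransferase of the malate-aspartate shuttle, read 13.17 and 12.53 in fed, 13.95 and 14.12 in fasted wild-type and 14.03 and 14.36 in Cnot3+/- liver. Its difference was 1.18 (SE 0.22, limma adjusted p = 0.0319). All 6 measured enzymes of citrate export and NADPH supply had negative differences (median -0.66), and 2 fell. Acly, which splits citrate into acetyl-CoA and oxaloacetate, fell by 2.34 (SE 0.13, limma adjusted p = 0.000684). Idh1, the cytosolic isocitrate dehydrogenase, fell by 0.70 (adjusted p = 0.0316). Me1, the malic enzyme, read 12.86 and 12.44, then 11.48 and 12.07, then 10.72 and 11.56, and was lower on the Cnot3+/- arrays against fed liver (-1.51, adjusted p = 0.0311) but not called in wild-type (-0.88, adjusted p = 0.185). Without the first Cnot3+/- array its difference from fed liver was -1.09 and was not called (adjusted p = 0.0906).

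Of 17 enzymes of the citric acid cycle and its refilling, 2 rose: Fh1, fumarase, by 0.63 (SE 0.11, limma adjusted p = 0.0252), and Pcx, pyruvate carboxylase, which makes oxaloacetate for gluconeogenesis, by 0.56 (adjusted p = 0.0402). Against fed liver the Cnot3+/- arrays added Dlst (0.58) and Ogdh (0.62), subunits of the oxoglutarate dehydrogenase complex. Without the first Cnot3+/- array Ogdh was called (0.70, adjusted p = 0.0485) and Dlst was not (0.59, adjusted p = 0.0744). None of 14 ATP synthase genes was called. The smallest p in that list was that of Atp5g1, with a difference of -0.48 (adjusted p = 0.123), and 12 of the 14 were negative (median -0.09). Of 9 regulators, Srebf1, the activator of fatty acid synthesis genes, fell by 4.67 (adjusted p = 0.000252). Of 9 iron and haem genes, Alad, the second enzyme of haem synthesis, fell by 0.87 (adjusted p = 0.0120).

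**Figure D5:**
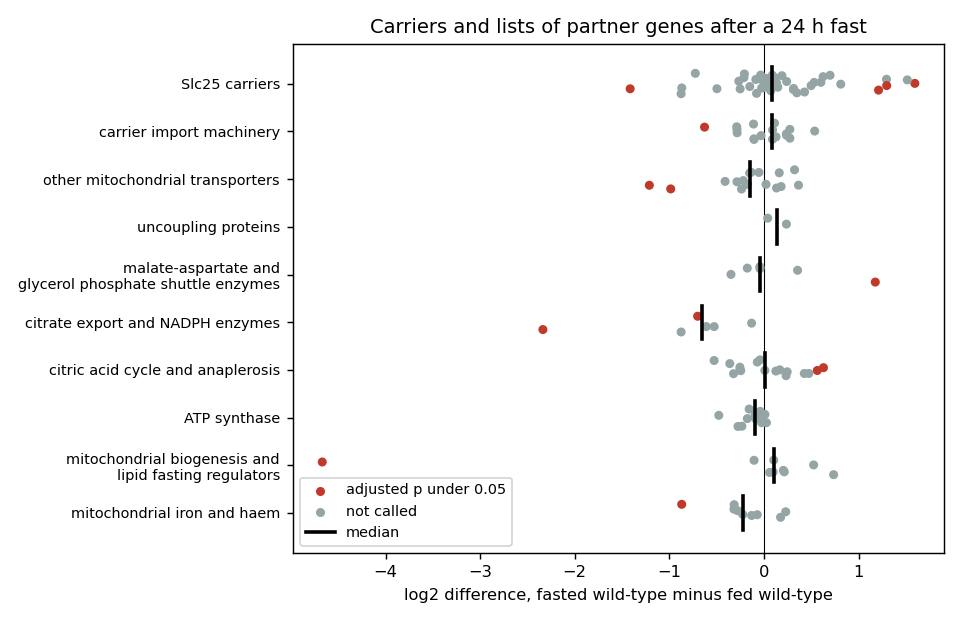
The fasting difference (fasted wild-type minus fed wild-type, log2, x axis) of each measured gene in the Slc25 carriers and 9 lists of partner genes (rows); red marks an adjusted p under 0.05 and black bars the medians. The carriers spread from -1.41 to 1.60 around a median of 0.08, and the citrate export and NADPH enzymes all lie below 0.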

How the data were processed

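The deposited values are log2 expression levels made by the authors with RMA, per the submitters' processing notes; its version is not given in the sources used here. Per the labels' protocols, 10 ug of total RNA went into each labelled cRNA. Of 45101 probe sets, 34945 name a single gene through the platform annotation, 932 name several and 9160 none, and 64 are controls. No renormalisation was applied. For each gene the single-gene probe set with the highest mean over the 6 arrays was used.

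limma 3.58.1 (R 4.3.3) fitted 3 group means to all 6 arrays and 18193 genes (residual df 3, prior df 4.24), with Benjamini-Hochberg adjustment within a comparison, and a gene was called at an adjusted p under 0.05. SE is the moderated standard error of a log2 difference. The number of arrays, 2 a group, limits the precision. The fit was tested on simulated data. Levels not above the array medians were not taken as above background. The alternatives left out each array, blocked on the replicate number, and changed the probe set, normalisation, filter, variance prior or groups in the fit.

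The carriers and all lists were chosen with earlier results of these data known. Every carrier is named. Full values are given for those called against fed liver, for the 6 with the smallest genotype p (except Slc25a53, which lay at or under the array medians and is given by its range) and the 5 uncalled with the smallest fasting p, and values for the 10 brightest. Of partner lists, called genes (at most 4) or that with the smallest p are named. Promoter windows, 32851 of 27025 genes, came from RefSeq (GRCm38.p6). Figures were drawn with matplotlib 3.10.9 (Python 3.11.15).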

Additional observations from a re-analysis of the deposited data

How the results depend on the processing

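Counts, medians and the differences of the carriers singled out in a comparison were recomputed under 14 alternatives, or 13 for 5 carriers. None of these differences reversed. Other carriers and the single partner and marker genes were not recomputed under all of them. Between the fasted genotypes, 16 such carriers had Cnot3+/- arrays on opposite sides of the fasted wild-type mean. Their sign depends on which Cnot3+/- array is left out. Slc25a28, Slc25a37 and Slc25a47 have no value without probe sets shared between transcripts, nor do Slc25a27 and Slc25a53 among only the genes brighter than the median gene. Where an array was left out, the lone array of its group was assumed to vary like the others. After the fast, Slc25a22 was called in all 14 (adjusted p 0.000501 to 0.0264). Leaving out 1 array, the carriers called ranged from 1 to 7: 6 without the first fed array, 2 without the second, 1 without the first fasted wild-type array, 2 without the second, and 7 without either Cnot3+/- array. With only the fed and fasted wild-type groups in the fit 7 were called, which for this comparison is the same fit as without either Cnot3+/- array. Against fed liver, the Cnot3+/- arrays gave 3 to 8 called carriers with an array left out (3 without the second fed array, 5 without the second Cnot3+/- array) and 5 with the mean over probe sets. There Slc25a22 and Slc25a34 were called in all 14, while Slc25a30 was lost in 7 and Slc25a12 in 10. These counts repeat a fit: leaving out either fasted wild-type array is there the same as fitting only the groups compared. The median of the carriers there ranged from 0.060 to 0.26. Called genes over the whole table ranged from 137 to 1033 after the fast, from 597 to 929 for Cnot3+/- against fed liver (857 with 2 groups in the fit), and from 0 to 2 between the fasted genotypes, again with an array left out. Partner genes ranged from 2 to 10 after the fast and from 4 to 10 for Cnot3+/- against fed liver (8 with 2 groups in the fit).

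The labels share replicate numbers and state no pairing. Across all genes, replicate 2 minus replicate 1 correlated at 0.45 between the fasted groups. It correlated at 0.04 between fed and fasted wild-type and at -0.01 between fed and Cnot3+/-. Among the carriers these values were 0.70, -0.46 and -0.23, and 0.61 between the fasted groups among genes brighter than the median gene. Fasted arrays of the same number thus deviated together, and why was not tested. As no pairing is stated, the main fit does not pair the samples and a block is given as an alternative. With the replicate number as a block, 6 carriers were called after the fast (Slc25a30 at adjusted p = 0.0112 and Slc25a37 at 0.0476 were added), 10 for Cnot3+/- against fed liver and 0 between the fasted genotypes. Over all genes the block gave 1206, 1708 and 0 calls.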

Other observations

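A probe set that names both Slc25a37 and Gm16867 was not used for either gene. It read between 4.24 and 4.44 on the 6 arrays, under the array medians, and differed by 0.00 after the fast.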
